A study of Homo sapiens with 12 samples.

Results

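RD is an established cell line of fusion-negative rhabdomyosarcoma, a childhood tumour of cells committed to the skeletal muscle lineage, and the comparison described here is RD cells with stable knockdown of KDM3A against RD cells with a control shRNA. Of the 12 RNA-seq libraries of the study, 6 were from RD and were chosen by their labels alone: 3 carried the Scrambled control shRNA (RD Scramble) and 3 carried an shRNA against KDM3A (RD KDM3A-sh2). Both groups were RD cells grown in the same medium, transduced with shRNA and selected in puromycin at 1 µg/ml, so the controls share the lentiviral transduction and the selection with the knockdown. The other 6 libraries came from Rh30, a fusion-positive line grown in another medium. They are used only where the RD change is set against theirs and in 1 alternative fit over all 12 libraries. Of 65975 gene identifiers in the table of FPKM (fragments per kilobase of transcript, scaled to the number of mapped fragments), 18002 averaged 1 FPKM or more over the 6 RD libraries and were tested. KDM3A was targeted with 1 shRNA, so effects of losing KDM3A and effects particular to that shRNA cannot be told apart. Whether the 3 libraries per group stem from separate cultures is not stated in the labels, and the p-values therefore measure the spread between libraries, which may be technical.

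KDM3A is a Jumonji-domain enzyme that removes mono- and dimethyl marks from lysine 9 of histone H3, marks that are tied to silent chromatin. It uses iron, oxygen and alpha-ketoglutarate, is itself induced in low oxygen, and can act as a coactivator of hormone receptors and other transcription factors. RD cells carry an activated RAS gene and express the myogenic factors of myoblasts but do not complete muscle differentiation.

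The labelled cell type was checked against defining markers first. Of 13 markers of rhabdomyosarcoma and the muscle lineage, 12 reached a mean of 1 FPKM in RD, among them MYOD1, the master regulator of the muscle lineage, at 132, 136 and 133 FPKM in the Scramble libraries and 107, 116 and 115 FPKM with KDM3A-sh2. The exception was MYF5, listed at 0 in 5 of the 6 libraries and at 0.027 FPKM in the other. The summed level of these markers was 2765, 3022 and 3011 FPKM in RD Scramble and 3261, 3176 and 3303 FPKM in RD KDM3A-sh2, and CHRNA1, the alpha subunit of the muscle acetylcholine receptor, was the most abundant of them. Markers of other cell types were low: 1 of 9 blood cell markers reached 1 FPKM (CD68, a lysosomal protein, with 4 of the 9 listed at 0 throughout), 3 of 8 epithelial markers (KRT18 the most abundant), 4 of 8 endothelial markers (TIE1 the most abundant), 3 of 7 neural crest markers (PMEL) and 1 of 5 adipocyte markers (FABP4). The endothelial sum went from 26.6, 27.8 and 26.0 to 15.8, 18.0 and 15.1 FPKM, and the blood cell sum went from 15.6, 17.7 and 15.9 to 25.2, 22.7 and 23.0 FPKM. The neural crest sum went from 9.33, 9.52 and 7.27 to 5.14, 5.66 and 5.28 FPKM, the adipocyte sum from 5.85, 6.01 and 5.64 to 7.53, 8.52 and 7.66 FPKM, and the epithelial sum from 56.6, 56.2 and 62.0 to 54.2, 53.6 and 54.8 FPKM. None of these 5 sums overlapped between the groups. The part of these marker changes in the results below was not tested.

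The 6 libraries fell into their 2 groups. Pearson's correlation across genes was 0.990 to 0.992 between libraries of one group and 0.962 to 0.969 between libraries of different groups. Genes are not independent replicates, and no test was made of this difference. Between 17828 and 17984 genes per library reached 1 FPKM. FPKM do not hold the number of reads, but the commonest ratio of low values between libraries gives their relative depth, which was 1.00, 1.13 and 0.983 in RD Scramble and 0.943, 0.920 and 0.815 in RD KDM3A-sh2 relative to the first Scramble library. The knockdown libraries were thus somewhat shallower by this estimate, and the part of depth in the results was not tested.

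KDM3A (ENSG00000115548, GRCh38 chr2:86440647-86492716) was measured at 35.8, 33.9 and 30.9 FPKM in the Scramble libraries and at 12.0, 11.2 and 13.4 FPKM with KDM3A-sh2. The groups did not overlap, and KDM3A fell by 1.39 on the log2(FPKM + 1) scale (standard error 0.08, adjusted p = 5e-05, limma). Its paralog KDM3B, which acts on the same mark, had means of 38.9 and 33.6 FPKM (log2 fold change -0.21). The third member of the family, JMJD1C, measured 66.2 ± 0.821 FPKM in the controls and 62.6 ± 0.972 FPKM after knockdown (SD, n = 3 each) and did not pass the threshold (log2 fold change -0.08, adjusted p = 0.113, limma), although its groups did not overlap and a test across all genes on unlogged FPKM called it lower (adjusted p = 0.0302). The fold changes below are all on this log2(FPKM + 1) scale, KDM3A-sh2 against Scramble, and a gene is called where its adjusted p in limma is below 0.05.

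Across the 18002 genes tested, 21.6% were called higher (3881) and 19.5% lower (3516) with KDM3A-sh2, and these shares are set beside the groups of genes below. Most changes were small, with a median size of 0.39 among called genes, and 162 rises and 174 drops went past 1. Among the 12629 protein-coding genes 26.0% were called higher and 22.4% lower. The lists hold mostly protein-coding genes and the symbol families only such genes, so for both these shares are the closer background. For 53.4% of genes the ranges of the 2 groups were separate. In bulk RNA, fewer cells of a kind and less RNA per cell cannot be told apart. An exact permutation test on a single gene, at 3 libraries per group, cannot give a p below 0.1, so smaller values rest on limma's model of the spread.

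The protein-coding genes with the largest changes had varied functions. DYNLRB1, a light chain of dynein, rose from 55.0 to 261 FPKM (2.23), and EVI5L, a regulator of RAB GTPases, from 4.78 to 19.4 FPKM (1.83). HSD17B10, a mitochondrial dehydrogenase that is also a subunit of mitochondrial RNase P, was at 43.3, 43.3 and 44.1 FPKM with Scramble and at 175, 171 and 172 FPKM with KDM3A-sh2. CPA4, a secreted carboxypeptidase, went from 73.7, 79.3 and 75.3 FPKM to 244, 236 and 247 FPKM. In both genes the knockdown libraries lay far above the controls, and the groups did not overlap. NTN4, a laminin-related netrin of basement membranes, rose from 4.88 to 19.6 FPKM (log2 fold change 1.81). MAPRE3, which binds the growing ends of microtubules, rose from 7.19 to 26.4 FPKM (1.75), and SNX15, a sorting nexin of endosomes, rose from 11.2 to 38.0 FPKM (1.68).

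At the other end, RAB11B, a GTPase of recycling endosomes, was at 125, 125 and 138 FPKM with Scramble and at 37.9, 43.7 and 38.9 FPKM with KDM3A-sh2. PTK2, which encodes focal adhesion kinase, was at 165, 167 and 145 FPKM and then at 51.6, 49.0 and 49.2 FPKM. Neither gene overlapped between the groups, and both fell by about the same amount (log2 fold changes -1.67 and -1.65). CITED1, a transcriptional coregulator of embryonic tissues, fell from 16.6 to 4.80 FPKM (-1.60). MOCS2, needed for the molybdenum cofactor, fell from 56.3 to 18.9 FPKM (-1.52), and MAGOHB, a core protein of the exon junction complex, fell from 57.9 to 19.6 FPKM (-1.51). A pair of mitotic genes were among the 10 largest drops: KIF4A, a chromosome-bound kinesin, fell from 22.7 to 6.90 FPKM (-1.59) and MAD2L1, of the spindle checkpoint, from 110.6 to 37.5 FPKM (-1.54). MEST, an imprinted gene of the mesoderm expressed from the paternal allele, was at 989.8, 987 and 950.3 FPKM with Scramble and at 334, 322 and 344 FPKM with KDM3A-sh2.

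To describe pathways, 69 lists of genes were used, which together name 2347 genes, of which 2005 could be tested under a mean of 1 FPKM or more. In 13 of these lists at least 8 members were tested and at least 60% of them were called in the same direction: 7 lists fell and 6 rose. Under some alternative analyses several of the 13 lists went under 60%, as given further below. The fall covered the making of ribosomes, splicing, chromatin assembly, chromosome structure, homologous recombination and sterol synthesis. The rise covered the integrated stress response, tRNA charging, lysosomes, calcium-binding S100 proteins and annexins, collagen processing and a list of cadherins and protocadherins.

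**Figure D1:**
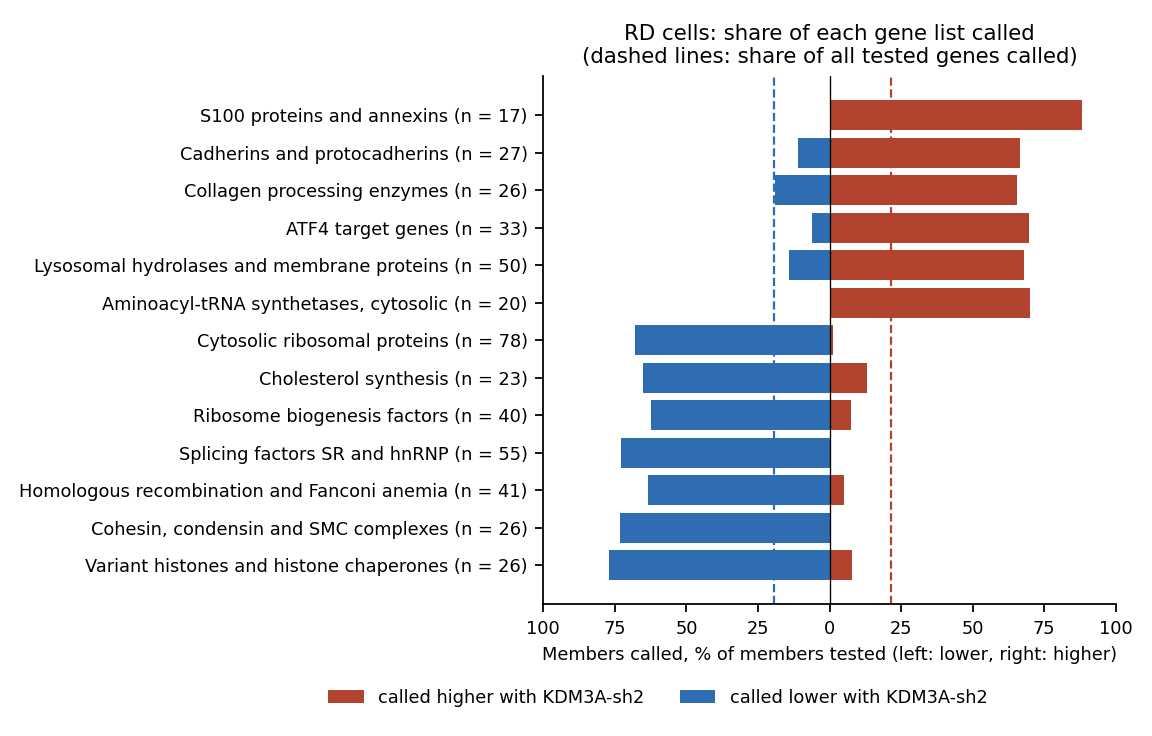
Share of the tested members of 13 gene lists called lower (blue, to the left) or higher (red, to the right) with KDM3A-sh2 in RD, in percent of members tested. Dashed lines mark the share of all tested genes called lower (19.5%) and higher (21.6%). The 13 lists are those with at least 60% of tested members called in 1 direction, so each passes a line by that choice.

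Genes for the ribosome were lower with KDM3A-sh2. Of 78 cytosolic ribosomal proteins, 53 were called lower and 1 higher, with a median log2 fold change of -0.21, beside a median of 0.01 over all genes tested. The changes were small and close together: the lowest was -0.55 and the highest 0.27. In 55 of the 78 genes all knockdown libraries were lower than all controls, and in 1 all were higher. Over all genes tested, the ranges were separate in 53.4%, counting both directions. RPL24, a protein of the large subunit, was at 860.2, 835 and 856 FPKM with Scramble and at 589, 573 and 575 FPKM after knockdown (log2 fold change -0.55, standard error 0.03, adjusted p = 2.88e-05, limma). RPLP1, an acidic protein of the ribosomal stalk, was at 1593, 1543 and 1628 FPKM and then at 1089, 1139 and 1108 FPKM. In both genes the groups were apart by several times their spread. RPL15 was the 1 member called higher, from 221 to 266 FPKM. The summed level of the 78 genes averaged 83572 FPKM in the controls and 72337 FPKM after knockdown.

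Ribosomal protein genes have many processed pseudogenes, which can share reads with them, so values of single members are uncertain. Of 343 tested processed pseudogenes named after these genes, 74 were called lower and 10 higher. The share called lower was near the 19.5% of all genes tested. Among all 2972 processed pseudogenes tested, 476 were called lower and 193 higher. Among 40 factors of ribosome biogenesis, 25 were called lower and 3 higher (median -0.26). FBL, the methyltransferase fibrillarin that modifies ribosomal RNA in the nucleolus, was at 486, 482 and 467 FPKM with Scramble and at 317, 319 and 305 FPKM with KDM3A-sh2. Its groups did not overlap. NOP58, a partner of fibrillarin in the same particles, fell from 151 to 110.4 FPKM (-0.45), while POLR1A, the largest subunit of RNA polymerase I, was called higher by a small amount (51.1 to 57.9 FPKM, 0.18), a call lost with all 12 libraries in 1 fit (adjusted p = 0.0632, limma) and without RD KDM3A-sh2 replicate 1 (adjusted p = 0.0506, limma). EEF1A2, a tissue-restricted elongation factor of muscle and neurons, dropped from 16.9 ± 0.665 to 3.96 ± 0.488 FPKM (SD, n = 3 each). Mitochondrial ribosomal proteins were closer to the background, with 20 of 76 called lower and 7 higher (median -0.02), although MRPL11 fell from 97.1 to 59.0 FPKM (-0.71) and MRPS7 from 161 to 101 FPKM (-0.67). With every library rescaled to the same sum, these counts were 16 lower and 10 higher.

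Splicing factors fell as a group. Of 55 SR proteins, hnRNPs and related factors, 40 were called lower and 0 higher, with a median of -0.29. HNRNPD, which binds AU-rich elements and controls mRNA decay, was at 673, 646 and 676 FPKM with Scramble and at 379, 369 and 367 FPKM with KDM3A-sh2. HNRNPA0, another AU-rich element binder, was at 47.4, 48.6 and 46.3 FPKM and then at 20.1, 21.0 and 20.2 FPKM. The 3 knockdown libraries of each gene stood within a few percent of one another and well below the controls. When genes were grouped only by the letters of their symbol, the 12 tested SRSF genes, the classical SR proteins, had one of the 5 lowest medians among 216 such families (-0.36), with 9 called lower and 0 higher. SRSF6 fell from 134 to 88.4 FPKM (-0.60) and SRSF2 from 364 to 246 FPKM (-0.56).

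Transport between nucleus and cytoplasm moved in the same direction, with 30 of 53 nuclear pore proteins and karyopherins called lower and 4 higher (median -0.17). CSE1L, which returns importin alpha to the cytoplasm, fell from 109 to 64.1 FPKM (-0.75), and NUP210, a membrane protein of the pore, fell from 15.7 to 8.80 FPKM (-0.77). XPOT, the exporter of transfer RNA, went the other way, from 39.9 to 51.2 FPKM (0.35).

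Most lists of chromatin genes had more members called lower than higher. Of 26 variant histones and histone chaperones, 20 were called lower and 2 higher (median -0.38). H1F0, the linker histone H1.0 that accumulates in cells that have stopped dividing, was at 268, 272 and 277 FPKM with Scramble and at 122, 123 and 115 FPKM with KDM3A-sh2. CENPA, the histone H3 variant that marks centromeres, fell from 39.7 to 18.5 FPKM (-1.06). The groups of both genes were separate by a wide gap. Among 22 high mobility group proteins, 9 were called lower and 6 higher, and 2 of the lower ones were abundant. HMGB2, which bends DNA, fell from 339 ± 9.71 to 154 ± 3.14 FPKM (SD, n = 3 each), and HMGA2, an oncofetal chromatin protein, fell from 167 ± 6.38 to 84.7 ± 1.88 FPKM (SD, n = 3 each).

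The writers and readers of repressive marks were mixed. Of 33 Polycomb proteins 13 were called lower and 6 higher (median -0.13). EZH2, the methyltransferase of histone H3 lysine 27, was at 76.8, 76.0 and 79.2 FPKM with Scramble and at 38.2, 39.2 and 36.8 FPKM with KDM3A-sh2, and PHF19, a Polycomb accessory protein, fell from 234 to 134 FPKM (-0.80). CBX6, a Polycomb reader, rose from 23.5 to 48.6 FPKM (1.02). For the mark that KDM3A removes, 6 of 17 H3K9 methyltransferases, HP1 proteins and their partners were called lower and 2 higher (median -0.14). UHRF1, which reads H3K9 methylation and recruits DNMT1, fell from 107 to 69.4 FPKM (-0.62), CBX1, the HP1 beta protein, fell from 228 to 154 FPKM (-0.57), and MORC2, a silencing ATPase, rose from 48.2 to 69.1 FPKM (0.51).

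Of 25 histone demethylases outside the KDM3 family, 5 were called higher and 4 lower. The lower ones included PHF2, a relative that acts on H3K9me2 (19.5 to 10.0 FPKM, -0.89), and KDM1A, the amine oxidase LSD1 (134 to 96.8 FPKM, -0.47). The higher ones included KDM1B (9.58 to 13.5 FPKM, 0.46) and KDM2A (44.4 to 58.8 FPKM, 0.40). Of 16 genes of DNA methylation, 7 were called lower and 2 higher. With libraries rescaled to the same sum these numbers were 5 and 4. DNMT1, the maintenance methyltransferase, fell from 335 to 254 FPKM (-0.40). Of 26 SWI/SNF subunits 11 were called lower and 2 higher, or 8 and 4 after rescaling. Replication-dependent histone genes gave 5 calls in each direction among 27, and their mRNAs mostly lack a poly(A) tail, so that an mRNA library counts few of them. HOX genes were called lower in 13 and higher in 8 of 33. The HOXA family alone had 7 of 10 called lower and 2 higher (median -0.37).

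Genes that hold and repair chromosomes fell. Of 26 cohesin, condensin and SMC proteins, 19 were called lower and 0 higher (median -0.31). NCAPH, a condensin I subunit, was at 56.2, 60.7 and 60.8 FPKM with Scramble and at 28.9, 28.4 and 25.3 FPKM with KDM3A-sh2, and NCAPG, its partner, fell from 60.2 to 28.6 FPKM (-1.05). Neither overlapped between the groups. Of 41 genes of homologous recombination and the Fanconi anemia pathway, 26 were called lower and 2 higher (median -0.31). XRCC2, a protein of homologous recombination, fell from 16.5 ± 1.01 to 7.84 ± 0.0683 FPKM (SD, n = 3 each). BARD1, the partner of BRCA1, was the most variable gene named here, at 29.5, 32.9 and 53.6 FPKM with Scramble and 11.8, 19.7 and 19.8 FPKM with KDM3A-sh2. It was called (log2 fold change -1.12, standard error 0.27, adjusted p = 0.0149, limma), but not when unlogged FPKM were tested (adjusted p = 0.117).

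Mismatch and base excision repair showed 9 of 22 called lower and 3 higher (median -0.12), led by LIG1, the DNA ligase of replication and excision repair, which fell from 84.8 ± 4.28 to 34.2 ± 2.03 FPKM (SD, n = 3 each). Among the symbol families, the HAUS genes, subunits of the augmin complex that branches spindle microtubules, had the lowest median (-0.51) with 8 of 8 called lower, and the MCM genes of the replicative helicase followed (-0.46), with 7 of 10 called lower and 0 higher. HAUS5 fell from 15.4 to 9.88 FPKM and MCM7 from 327 to 182 FPKM.

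Sterol synthesis was lower along most of the pathway. Of 23 genes, 15 were called lower and 3 higher (median -0.22). HMGCS1, which makes HMG-CoA at the head of the pathway, was at 89.5, 78.4 and 74.4 FPKM with Scramble and at 45.6, 45.8 and 50.8 FPKM with KDM3A-sh2. FDFT1, squalene synthase and the first step committed to sterols, was at 343, 332 and 336 FPKM and then at 204, 204 and 202 FPKM. Neither gene overlapped between the groups. PMVK, phosphomevalonate kinase, rose from 55.9 to 68.8 FPKM (0.29). Fatty acid synthesis and desaturation followed with 8 of 15 called lower and 2 higher (median -0.23). With libraries rescaled to the same sum 8 were lower and 3 higher, and with libraries scaled by their median ratio 8 and 1. The neighbouring desaturase genes FADS1 (75.1 to 47.4 FPKM, -0.65) and FADS2 (61.9 to 37.0 FPKM, -0.73) led the drops. In promoter windows from RefSeq (250 bases before to 50 after the start) the sterol word TCACCCCAC, or GTGGGGTGA on the other strand, was found in 1 of 18 cholesterol genes and 0 of 14 fatty acid genes, beside 0.425% of all windows, and the 1 gene was not called. The word CCAAT, or ATTGG on the other strand, was found in 15 of the 18, of which 8 were called lower and 2 higher, beside 35.7% of all windows.

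**Figure D2:**
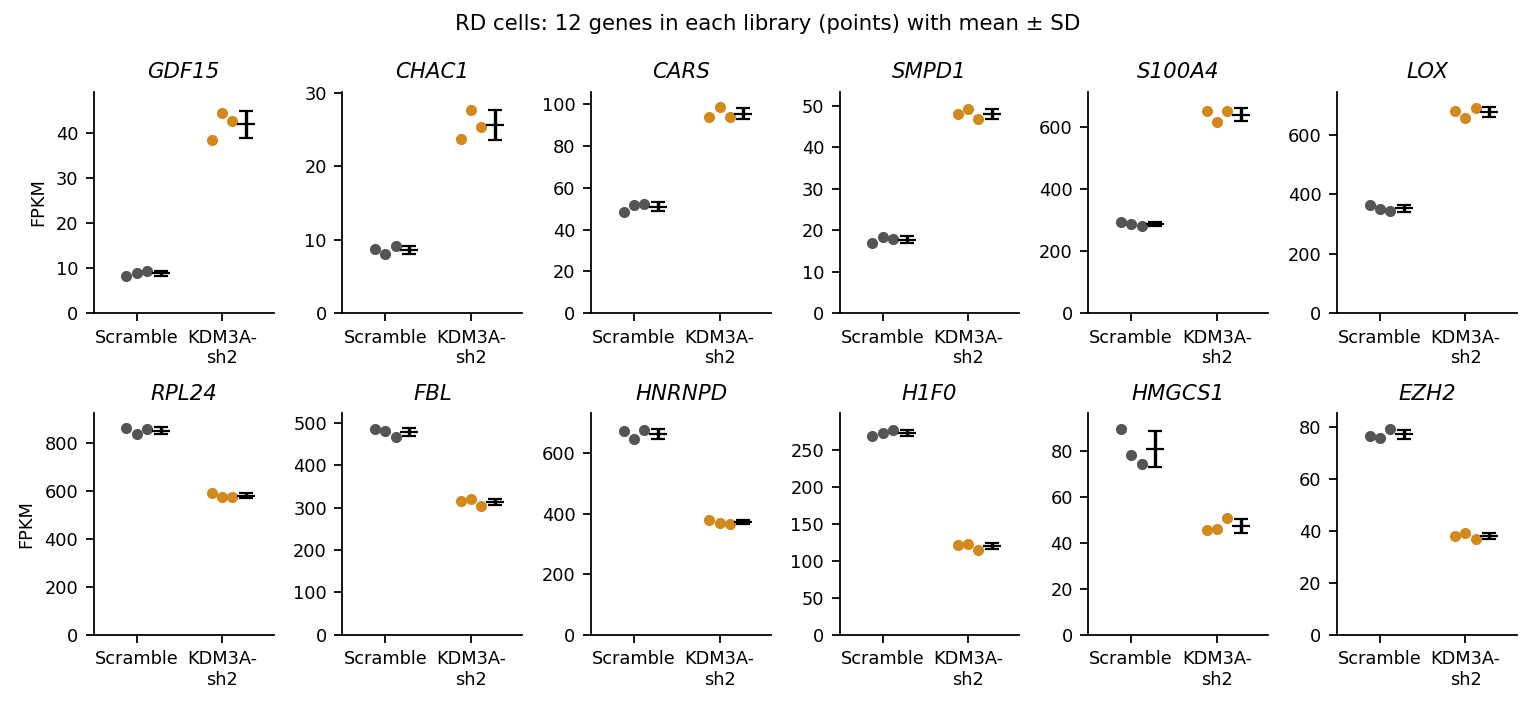
FPKM of 12 genes in each RD library: 6 that rose (top row) and 6 that fell (bottom row) with KDM3A-sh2, drawn from 0. Points are single libraries and the black marks are the mean and SD (n = 3), and in none of the 12 genes do the groups overlap.

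Genes of the integrated stress response rose. In this pathway kinases that sense amino acid shortage, misfolded protein, heme lack or viral RNA slow translation and raise the transcription factor ATF4, which induces genes for amino acid synthesis, amino acid import, tRNA charging and redox balance. Of 33 tested targets of ATF4, 23 were called higher and 2 lower, with a median of 0.36. GDF15, a secreted stress hormone of the TGF-beta family, was at 8.20, 8.95 and 9.27 FPKM with Scramble and at 38.5, 44.5 and 42.7 FPKM after knockdown (log2 fold change 2.13, standard error 0.07, adjusted p = 1.24e-05, limma). CHAC1, which degrades glutathione, was at 8.77, 7.98 and 9.10 FPKM and then at 23.7, 27.7 and 25.3 FPKM. In both genes every knockdown library lay far above every control.

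The list also holds enzymes of amino acid synthesis, of which the following 3, like ATF4 itself, were chosen after their values were seen. ASNS, asparagine synthetase, was at 43.5, 43.3 and 43.3 FPKM with Scramble and at 93.8, 96.2 and 96.2 FPKM with KDM3A-sh2. PSPH and PHGDH, enzymes of the serine pathway, rose from 57.3 to 123 FPKM (1.09) and from 129.8 to 230.2 FPKM (0.82). ATF4 mRNA rose less, from 342 to 433 FPKM (0.34). The 2 members called lower were DDIT4, an inhibitor of mTORC1 (30.0 to 22.5 FPKM, -0.40), and CBS, which starts transsulfuration (11.3 to 8.86 FPKM, -0.32). CBS lost its call in 4 of the alternative analyses.

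Cytosolic aminoacyl-tRNA synthetases, which charge transfer RNA with amino acids, were called higher in 14 of 20 cases and lower in 0 (median 0.21). CARS, for cysteine, was at 48.5, 51.8 and 52.5 FPKM with Scramble and at 94.0, 98.5 and 94.0 FPKM with KDM3A-sh2. AARS, for alanine, was at 91.6, 95.1 and 101 FPKM and then at 173, 172 and 163 FPKM. Neither gene overlapped between the groups. These enzymes and the exporter XPOT rose while ribosomal proteins fell, so genes of the translation machinery did not move as 1 block.

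Promoters were searched for 5 short words known as binding sites of factors of these pathways, and stretches are shown for a few genes that rose and hold a word: here CHAC1 and synthetase genes, and further below lysosomal genes. Among 16 synthetase genes with a promoter window in RefSeq (250 bases before to 50 after the start, GRCh38.p14), 6 hold TGATGCAA, the C/EBP-ATF response element, or TTGCATCA on the other strand: AARS, CARS, IARS, MARS, NARS and TARS, each called higher. Of 27305 windows of this length, 0.923% hold it. In the ATF4 target list 1 of 26 windows holds it, that of CHAC1. The stretches below lie before the start on the strand of the gene, with this word in capitals.
CHAC1 (chr15:40953236-40953295, plus strand): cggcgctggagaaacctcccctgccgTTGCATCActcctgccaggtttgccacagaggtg
AARS (chr16:70289660-70289719, minus strand): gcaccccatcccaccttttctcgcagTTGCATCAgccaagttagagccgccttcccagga
IARS (chr9:92293698-92293757, minus strand): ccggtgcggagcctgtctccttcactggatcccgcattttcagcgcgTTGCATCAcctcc
The word begins 209 bases before the start of CHAC1, 187 before that of AARS and 13 before that of IARS. IARS, the isoleucine enzyme, shown for its word, went from 267 to 306 FPKM (0.19). A match is a description of the sequence and not a measured binding site, and the 41 tested genes with the word in this window had a median log2 fold change of 0.09.

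**Figure D3:**
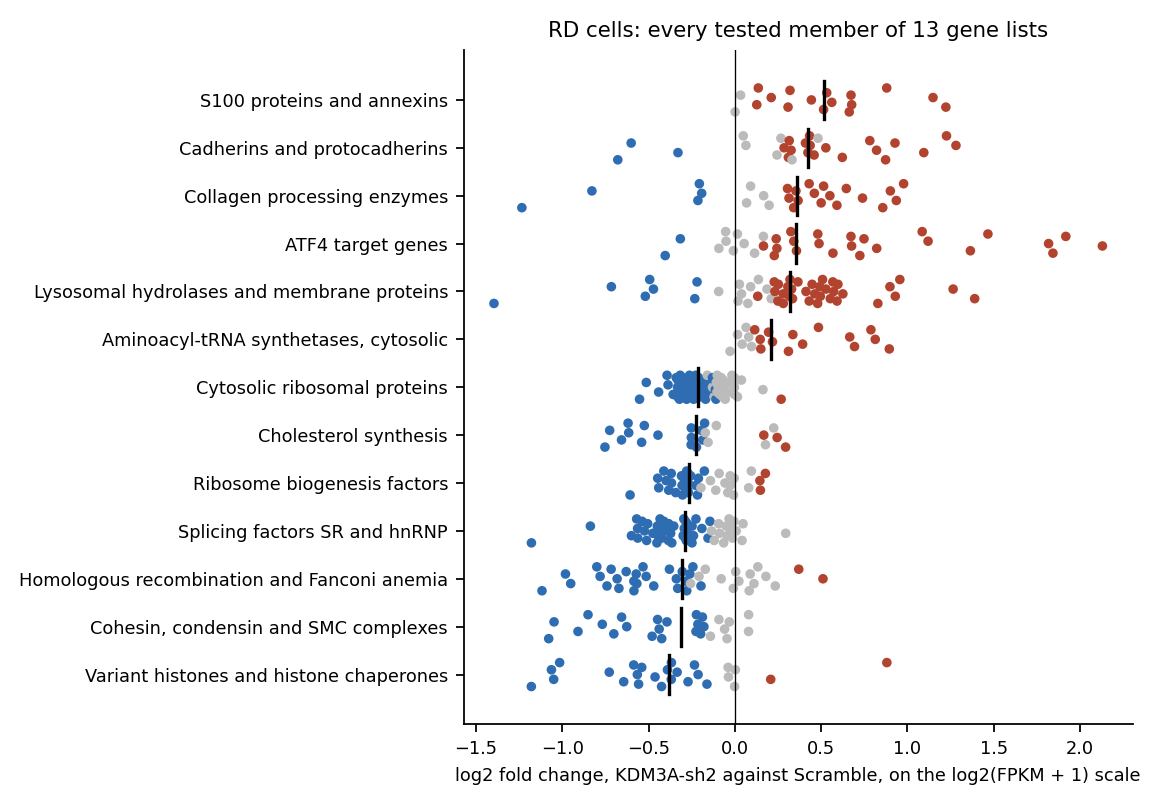
Log2 fold change (KDM3A-sh2 against Scramble, log2(FPKM + 1) scale) of every tested member of the 13 lists in RD. Points are genes, red where called higher, blue where called lower and grey where not called, and black bars are medians, from -0.38 for variant histones to 0.51 for S100 proteins and annexins.

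Lysosomal genes rose as well. Of 50 hydrolases and membrane proteins of the lysosome, 34 were called higher and 7 lower (median 0.32), and their summed level averaged 7254 FPKM in the controls and 9164 FPKM after knockdown. SMPD1, the acid sphingomyelinase that is lost in Niemann-Pick disease, was at 16.8, 18.4 and 17.8 FPKM with Scramble and at 48.0, 49.2 and 46.7 FPKM with KDM3A-sh2. GM2A, the activator protein for ganglioside breakdown, was at 11.5, 12.2 and 11.9 FPKM and then at 23.4, 24.7 and 23.6 FPKM. In both genes all knockdown libraries were close to one another and far above the controls. OSTM1, a partner of the lysosomal chloride exchanger, fell the most, from 52.5 ± 4.12 to 19.3 ± 1.91 FPKM (SD, n = 3 each). CTSS, a cathepsin of antigen-presenting cells, also fell (56.6 to 34.1 FPKM, -0.72).

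The proton pump that acidifies lysosomes was less uniform, with 8 of 18 subunits called higher and 3 lower (median 0.13). ATP6V0C rose from 116 to 175 FPKM (0.59) and ATP6V1F from 341 to 457 FPKM (0.42), while ATP6V1G1 fell from 253 to 165 FPKM (-0.61). Of 36 genes of the autophagy machinery, 16 were called higher and 1 lower (median 0.17), led by ATG4D, a protease that processes ATG8 proteins (24.0 to 48.2 FPKM, 0.98), and ATG9A, the lipid scramblase of autophagic membranes (83.1 to 119 FPKM, 0.52).

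Many lysosomal genes carry the E-box-like CLEAR element, the binding site of TFEB and its relatives, and its core was searched in the same windows. Of 32 lysosomal genes with a window, 10 hold TCACGTG, or CACGTGA on the other strand, compared with 3.82% of all 27305 windows. Of the 10, 6 were called higher and 0 lower. Of 13 proton pump genes with a window, 4 hold the word, and 3 of these were called lower and 1 higher. In autophagy genes 2 of 33 hold it, neither of them called. The 595 tested genes with the word had a median log2 fold change of 0.02. Stretches of 3 of the lysosomal genes that rose, chosen for the word and not by the naming rule, are printed with 1 copy of the word in capitals.
CTSD (chr11:1763941-1764000, minus strand): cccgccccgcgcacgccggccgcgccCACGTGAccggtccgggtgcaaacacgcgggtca
NEU1 (chr6:31862915-31862974, minus strand): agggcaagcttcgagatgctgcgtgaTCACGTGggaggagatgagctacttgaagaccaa
MCOLN1 (chr19:7522556-7522615, plus strand): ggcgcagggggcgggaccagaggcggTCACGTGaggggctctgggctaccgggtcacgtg
CTSD, the major aspartic protease of the lysosome, rose from 346 to 432 FPKM (0.32). NEU1, the lysosomal sialidase, rose from 81.9 to 113 FPKM (0.46), and MCOLN1, a lysosomal calcium channel, rose from 31.2 to 38.9 FPKM (0.31).

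The list with the largest share of rises was that of S100 proteins and annexins, calcium-binding proteins that link calcium to membranes and the cytoskeleton. Of 17 tested members 15 were called higher and 0 lower, with a median of 0.51. One of the 15 was S100PBP, which encodes a protein that binds S100P and is not itself an S100 protein (33.5 to 38.9 FPKM, 0.21). S100A4, known for its part in cell motility, was at 294, 288 and 281 FPKM with Scramble and at 652, 614 and 650.0 FPKM after knockdown (log2 fold change 1.15, standard error 0.04, adjusted p = 1.18e-05, limma). ANXA4, an annexin of membrane repair, was at 14.5, 16.2 and 18.5 FPKM and then at 40.3, 36.2 and 41.9 FPKM. ANXA5, the annexin used to stain exposed phosphatidylserine, rose from 796 to 1464 FPKM (0.88). No group overlapped with the other in these 3 genes. S100A4 is one of several S100 genes that lie side by side on chromosome 1, so members of the list are not independent of position. The AP-1 word TGACTCA, or TGAGTCA on the other strand, was found in 4 of the 17 promoter windows, beside 4.92% of all windows, and the 4 genes were called higher, as were most of the list.

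Families with the highest medians were also read from symbols alone. ANXA had the highest median of 216 families (0.49), with 7 of 8 called higher, and the 1 called lower was ANXA2R, a receptor gene and not an annexin. Of 16 TSPAN genes, tetraspanins that organise membrane domains, 11 were called higher and 1 lower (0.37). TSPAN14 rose from 48.9 to 77.6 FPKM and TSPAN9 from 60.8 to 94.5 FPKM. Of 8 ARPC genes, subunits of the ARP2/3 complex that branches actin, 7 were called higher and 0 lower (0.33), with ARPC1B going from 237 to 336 FPKM. Of 13 ALDH genes, aldehyde dehydrogenases, 7 were called higher and 2 lower (0.39), with ALDH18A1, an enzyme of proline synthesis, going from 81.2 to 119.6 FPKM.

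Collagen processing rose, while collagen chains changed in both directions. Of 26 enzymes and chaperones that modify, trim and cross-link collagen, 17 were called higher and 5 lower (median 0.36). LOX, the lysyl oxidase that cross-links collagen and elastin, was at 365, 352 and 342 FPKM with Scramble and at 681, 657 and 689.5 FPKM with KDM3A-sh2. P3H2, a prolyl 3-hydroxylase, rose from 45.4 to 82.8 FPKM (0.86). In contrast PCOLCE, which speeds the removal of the collagen propeptide, was at 65.4, 65.1 and 66.6 FPKM and then at 29.5, 28.4 and 24.3 FPKM. LOXL4, a relative of LOX, fell from 113 to 63.1 FPKM (-0.83). The groups of LOX and PCOLCE did not overlap.

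Of 29 collagen chains, 10 were called higher and 7 lower (median 0.01). COL1A1, the main chain of type I collagen, was at 128, 119 and 128 FPKM with Scramble and at 296, 297 and 316 FPKM with KDM3A-sh2, and COL11A1, a fibrillar chain of cartilage, rose from 20.8 to 47.2 FPKM (1.15). COL2A1, the main fibrillar chain of cartilage, had the largest drop among protein-coding genes averaging 10 FPKM or more and was at 39.5, 38.2 and 43.9 FPKM and then at 8.21, 9.95 and 8.09 FPKM. COL6A3, a beaded-filament chain, fell from 38.6 to 15.7 FPKM (-1.24). The partner chains of COL6A3, named after their values were seen, did not pass the test: COL6A1 averaged 231 FPKM in the controls and 233 FPKM after knockdown, and COL6A2 averaged 165 and 154 FPKM.

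Other matrix genes were as divided. Of 45 proteoglycans and matrix glycoproteins, 18 were called higher and 15 lower (median 0.07). LUM, the small proteoglycan lumican that binds collagen fibrils, was at 22.2, 20.2 and 19.6 FPKM with Scramble and at 71.8, 66.9 and 77.0 FPKM with KDM3A-sh2. TNC, tenascin C, an abundant matrix glycoprotein of tumours and tendons, rose from 307 ± 8.49 to 638 ± 26.1 FPKM (SD, n = 3 each). LTBP4 and LTBP2, which bind fibrillin and, in the case of LTBP4, latent TGF-beta, fell from 28.2 to 12.5 FPKM (-1.11) and from 63.8 to 36.2 FPKM (-0.80). Of 30 matrix proteases and inhibitors, 12 were called higher and 7 lower. The plasminogen activator PLAT rose from 213 to 369.5 FPKM (0.79).

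Cadherins and protocadherins, adhesion proteins that bind like molecules on neighbouring cells, were called higher in 18 and lower in 3 of 27 tested (median 0.42). PCDHB2, of the protocadherin beta cluster, was at 43.1, 41.6 and 34.7 FPKM with Scramble and at 58.1, 54.1 and 60.6 FPKM with KDM3A-sh2. CDH13, a cadherin anchored by lipid, rose from 137 to 189 FPKM (0.46). CDH15, the M-cadherin of myoblasts, fell from 72.4 to 47.3 FPKM (-0.60). Among genes with the symbol CDH alone, 3 of 8 were called in each direction (median -0.13). Clustered protocadherin genes are related copies that lie side by side, and those of the alpha and gamma clusters share exons, so values of single members are uncertain and the 10 tested PCDHB genes (7 called higher, 0 lower) are not independent. Among 18 integrin subunits 6 were called higher and 4 lower, with the fibronectin receptor chain ITGA5 rising from 93.7 to 170.4 FPKM (0.86) and the laminin receptor chain of muscle, ITGA7, falling from 68.6 to 41.7 FPKM (-0.71).

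Muscle genes, which define the lineage of these cells, did not move together. Of 45 sarcomere and contraction genes, 23 were called lower and 8 higher (median -0.18). TNNC1, the slow and cardiac troponin C, was at 42.2, 43.4 and 43.6 FPKM with Scramble and at 19.3, 18.5 and 20.4 FPKM with KDM3A-sh2, and MYH3, embryonic myosin, fell from 106 to 58.8 FPKM (-0.83). NEB, the giant thin-filament ruler nebulin, was at 81.5, 87.5 and 87.1 FPKM and then at 157, 157 and 162 FPKM, and CSRP3, a Z-disc protein, rose from 10.4 to 22.4 FPKM (1.04). No group overlapped with the other in these 4 genes.

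Of 25 myogenic transcription factors, 11 were called lower and 3 higher (median -0.08). PITX3, a homeobox factor of muscle and of dopamine neurons, fell from 22.3 to 9.15 FPKM (-1.21). PAX3, the paired-box factor that is fused in many fusion-positive tumours and is not fused in a fusion-negative line, was at 16.3, 17.4 and 14.6 FPKM with Scramble and at 9.80, 7.45 and 7.23 FPKM with KDM3A-sh2. MEF2C, a partner of MyoD, rose from 28.7 to 39.4 FPKM (0.45). Genes of excitation and the neuromuscular junction leaned the other way, with 13 of 33 called higher and 5 lower (median 0.15), among them CHRND, the delta subunit of the acetylcholine receptor (105 to 150.1 FPKM, 0.51), and ACHE, acetylcholinesterase (10.3 to 16.5 FPKM, 0.63).

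Lists of growth factor genes had calls in both directions, as did protein-coding genes as a whole (26.0% higher and 22.4% lower). The FGF list (23.1% each way) and the BMP list (26.3% higher and 21.1% lower) were near these shares. In the IGF system, on which rhabdomyosarcoma cells are known to depend, 7 of 18 genes were called lower and 6 higher. IGF2, the ligand, was at 4636, 5395 and 5064 FPKM with Scramble and at 3087, 3104 and 3019 FPKM with KDM3A-sh2, a drop of 0.71 (standard error 0.06, adjusted p = 0.000136, limma). IGFBP2, which binds it, fell from 708 to 451 FPKM (-0.65), whereas IGFBP3 rose from 52.0 to 92.8 FPKM (0.82) and PAPPA, the protease that frees IGF from binding proteins, rose from 11.6 to 21.0 FPKM (0.81). IGF2 and MEST are both imprinted, but 7 of 20 imprinted genes were called lower and 3 higher.

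HBEGF, a ligand of the EGF receptor, was at 22.0, 21.6 and 21.2 FPKM with Scramble and at 48.3, 48.9 and 53.4 FPKM with KDM3A-sh2, in a list with 3 of 9 called higher and 3 lower. In the FGF list 6 of 26 were called in each direction. SPRY4, a feedback inhibitor of receptor signalling, rose from 56.3 to 89.4 FPKM (0.66) and the factor ETV4 from 113 to 150.0 FPKM (0.41), whereas DUSP5, a phosphatase that limits ERK, fell from 32.4 to 23.1 FPKM (-0.47). PGF, placental growth factor, fell from 218 to 122 FPKM (-0.84), in a VEGF and PDGF list with 8 of 15 called higher and 3 lower. The Notch list was balanced, with 9 of 29 called in each direction. DLL1, a Notch ligand, fell from 28.3 to 13.9 FPKM (-0.98) and HEYL, a Notch target, from 36.0 to 20.5 FPKM (-0.78). In the same list DNER rose from 6.62 to 13.7 FPKM (0.95) and NCSTN from 112 to 161 FPKM (0.525).

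In the TGF-beta and activin list 12 of 28 genes were called higher and 6 lower (median 0.10), with SMURF2, a ubiquitin ligase that limits the pathway, rising from 80.6 to 140.2 FPKM (0.79). ID2, a BMP target that blocks differentiation, fell from 44.4 to 23.5 FPKM (-0.89), in a BMP list with 5 of 19 called higher and 4 lower. Of 21 YAP and TEAD targets and factors, 9 were called higher and 2 lower (median 0.13), and the coactivator WWTR1, or TAZ, rose from 188 to 289 FPKM (0.61).

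Interferon-stimulated and antigen presentation genes were called lower in 20 and higher in 9 of 52 (median -0.12). IFIT3, an antiviral effector, was at 115, 113 and 114 FPKM with Scramble and at 53.8, 55.1 and 54.8 FPKM with KDM3A-sh2, and OASL fell from 20.5 to 9.11 FPKM (-1.09). TAPBP, the peptide-loading chaperone tapasin, rose from 27.8 to 53.5 FPKM (0.92) and IFI35 from 15.0 to 29.3 FPKM (0.92). Cytokine and NF-kB genes gave 9 of 33 called higher and 5 lower. PTX3, a secreted pattern receptor, was at 51.9, 50.5 and 52.1 FPKM and then at 139.5, 134 and 143 FPKM, while IL1B, the cytokine interleukin 1 beta, fell from 59.0 to 26.6 FPKM (-1.12). Neither PTX3 nor IL1B overlapped between the groups.

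Protein-folding genes were divided. Among 25 endoplasmic reticulum chaperones, 8 were called in each direction. CANX, the lectin chaperone calnexin, was at 447, 489 and 459 FPKM with Scramble and at 205, 188 and 184 FPKM with KDM3A-sh2, and HSP90B1 fell from 965 to 643 FPKM (-0.58), while XBP1, the factor of the IRE1 branch, rose from 101 to 134 FPKM (0.41). Of 28 cytosolic heat shock genes, 10 were called lower and 6 higher, with the small heat shock protein HSPB8 rising from 28.6 to 50.2 FPKM (0.79). NRF2 targets, which answer oxidative stress, were called higher in 12 of 25 and lower in 2 (median 0.16), with TXNRD1, thioredoxin reductase, going from 743 to 1029 FPKM (0.47). With libraries rescaled to the same sum the NRF2 counts were 12 and 1.

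Lists of energy metabolism had calls in both directions. Complex I gave 9 of 37 called higher and 4 lower, complexes III to V gave 8 of 35 in each direction, and glycolysis gave 5 higher and 7 lower of 21. With libraries rescaled to the same sum, the first of these counts were 10 and 2 and those of complexes III to V were 9 and 6, and with libraries scaled by their median ratio the latter were 5 and 8. The proteasome, too, showed 7 of 39 called higher and 8 lower, or 10 and 5 after rescaling. Of the beta subunits of the sodium pump, ATP1B1 rose from 49.0 to 73.8 FPKM (0.58) and ATP1B3 from 193 to 317 FPKM (0.71).

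By class of transcript, 23.0% of 564 tested lincRNAs were called higher and 6.2% lower (median 0.16), and 20.4% of 631 antisense transcripts were called higher and 6.7% lower (median 0.12). The shares called higher were near the background of 21.6% and those called lower were under the 19.5% of all genes. Of 2972 processed pseudogenes 193 were called higher and 476 lower (median -0.09), both smaller shares than over all genes. The strand setting of the counting was not found in the sources used, and reads of pseudogenes and their parent genes can be shared, so single members of these classes are uncertain.

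The change in RD was set against that in Rh30 by the interaction of shRNA and line in a fit over all 12 libraries. Of 18532 genes 27.9% passed this test, 2669 with the higher value in Rh30 and 2493 with the lower. With every library rescaled to the same sum these numbers were 2081 and 3029. The lines were grown in different media and each stands for 1 tumour, so line and medium cannot be told apart. The 6 Rh30 libraries were 3 with the Scrambled shRNA and 3 with KDM3A-sh2 under the same puromycin selection. KDM3A fell by 1.02 in Rh30 and by 1.39 in RD, a difference of 0.37 (adjusted p = 0.0387, limma).

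In Rh30 alone, 15.3% of 17810 genes tested were called higher and 13.2% lower, the background for the counts in that line. The lists that follow were chosen for their one-way change in RD, which alone favours a smaller change in Rh30 and a difference between the lines, so their counts are a description. For the cytosolic ribosomal proteins the interaction passed in 68 of 78 genes, always with the higher value in Rh30, where 50 were called higher and 0 lower (median 0.18 in Rh30 and -0.21 in RD). RPLP1, which fell in RD, had a log2 fold change of 0.12 in Rh30, a difference of 0.63 (adjusted p = 7.7e-06, limma). Of the 55 splicing factors, 35 differed, each with the higher value in Rh30, as did 20 of 40 ribosome biogenesis factors and 15 of 26 cohesin and condensin genes. Variant histones differed in 17 of 26, with 16 higher in Rh30.

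ATF4 targets differed in 24 of 33 genes, each with the lower value in Rh30, where 6 of the 31 tested there were called higher and 13 lower (median -0.08 in Rh30 and 0.36 in RD). GDF15 had a log2 fold change of -0.67 in Rh30, a difference of -2.80 (adjusted p = 7.86e-08, limma), and CHAC1 one of -0.45, a difference of -1.92 (adjusted p = 1.3e-06, limma). The synthetases differed in 13 of 20 genes, collagen processing in 21 of 26 (19 lower in Rh30), S100 proteins and annexins in 13 of 17 and lysosomal genes in 24 of 50 (22 lower in Rh30). Of the 48 lysosomal genes tested in Rh30, 15 were called higher and 6 lower there (median 0.10).

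Cholesterol synthesis had the smallest share of members with a difference among the 13 lists. The interaction passed in 7 of 23 genes, close to the 27.9% of all genes, 14 of 23 were called lower in Rh30 and 0 higher, and the median there was -0.34 beside -0.22 in RD. The drop of FDFT1 was -0.73 in RD and -0.71 in Rh30, and that of HMGCS1 -0.75 and -0.60. A difference that misses the threshold does not show that the lines respond alike.

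**Figure D4:**
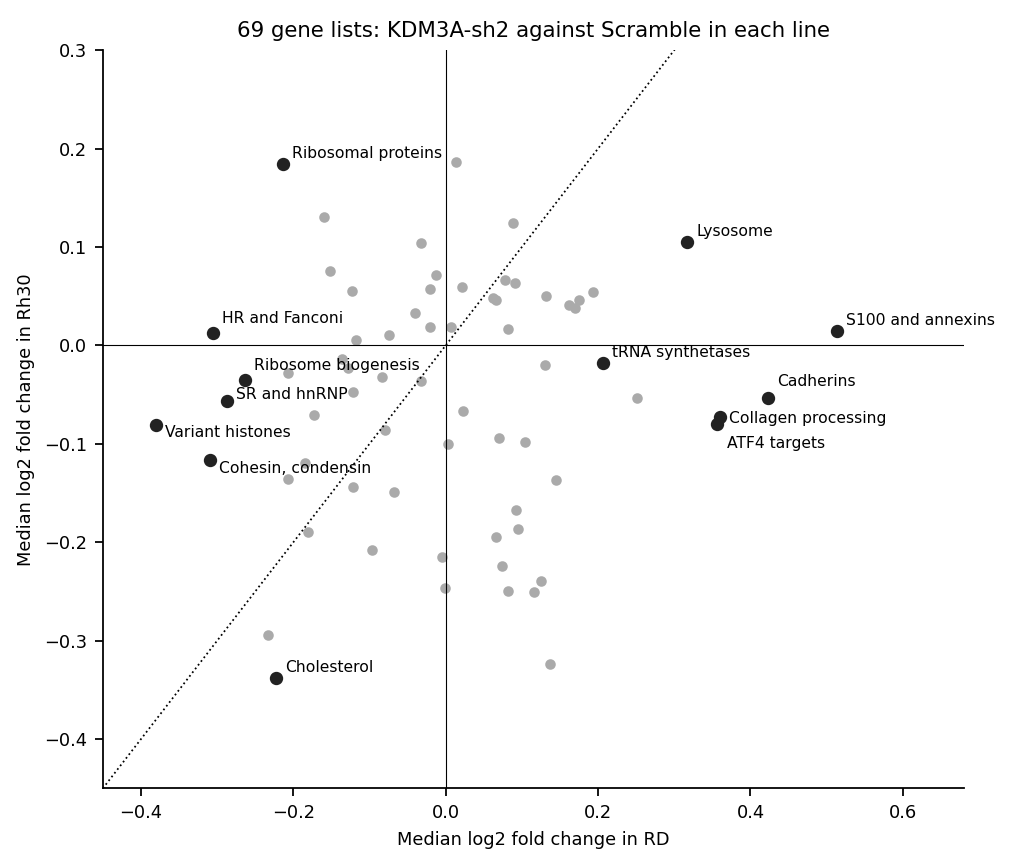
Median log2 fold change (KDM3A-sh2 against Scramble) of each of 69 gene lists in RD (horizontal axis) and Rh30 (vertical axis). Black points are the 13 lists that led the change in RD, grey points the others, and the dotted line marks equal values. Cholesterol synthesis lies below 0 in both lines, and cytosolic ribosomal proteins lie below 0 in RD and above 0 in Rh30.

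**Figure D5:**
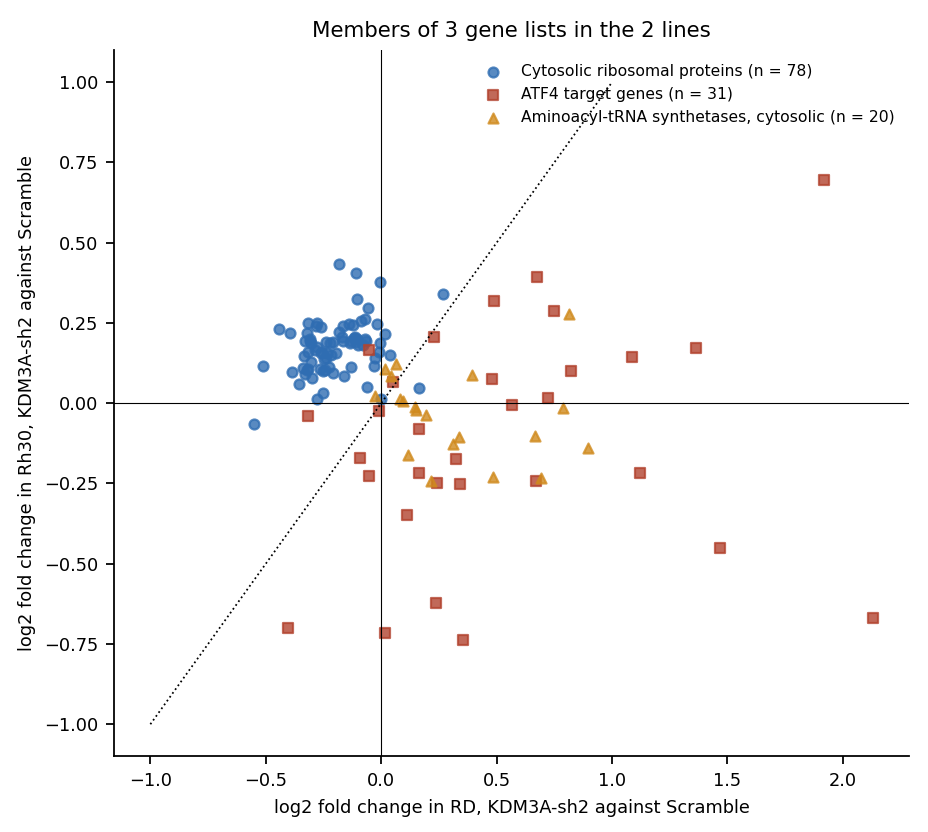
Log2 fold change of single members of 3 lists in RD (horizontal axis) and Rh30 (vertical axis) for genes tested in both lines, with a dotted line at equal values. Of 78 ribosomal protein genes, 73 lie below 0 in RD and above 0 in Rh30, and 14 of 31 ATF4 targets lie above 0 in RD and below 0 in Rh30.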

How the data were processed

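RNA from RD and Rh30 cells was sequenced as directional mRNA libraries, 3 per group. Per the study's methods and the submitters' processing notes, the authors aligned reads to GRCh38 with GSNAP, with SAMtools and Cufflinks, and deposited FPKM per gene. The annotation release and the strand setting of the counting were not given in the sources used here, and the methods and labels differ on read length. FPKM hold no read numbers, so depth is known only relative to another library.

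The placeholder 999999999 was taken as missing. Identifiers listed more than once (117) were kept as the row with the highest mean, which left 65975 of 66095 entries. A fit used the libraries with a value for the 15 genes missing in some RD library, and PAICS was missing in all 6. Identifiers were matched to GENCODE 29 (86.3%).

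Genes averaging 1 FPKM or more over the 6 RD libraries were tested with limma 3.58.1 (R 4.3.3, trended prior) on log2(FPKM + 1), two-sided, with Benjamini-Hochberg adjustment and a threshold of 0.05. This scale understates changes of low genes. The difference between lines was the interaction term of a fit over 12 libraries. The test was checked on simulated data. Tables and figures used Python 3.11.15, pandas 2.3.3, NumPy 2.4.6 and matplotlib 3.10.9.

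Named genes were KDM3A and its paralogs, up to 2 called rises and 2 called drops per list among members averaging 10 FPKM or more, the 10 largest protein-coding changes each way without overlap between groups, and members of the 5 highest and 5 lowest symbol families of at least 8 genes. Exceptions are stated where they occur, and a few genes under the rule are not reported here. The members, lists and tests were chosen with earlier results of these data known. Promoter sequences are from RefSeq (GRCh38.p14). Alternatives were a pseudocount of 0.1, no filter, 2 other scalings, ANOVA on unlogged values, all 12 libraries in 1 fit, a replicate block and leaving out each library.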

Additional observations from a re-analysis of the deposited data

Results flagged for a closer look

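Of 127 genes followed here, 101 responded differently to KDM3A-sh2 in RD and Rh30, by limma's test of the interaction of shRNA and line: 53 had the higher log2 fold change in Rh30 and 48 the lower. Other genes named in this report are outside this count. Most of these genes were named for large changes in RD, a choice that favours a difference between the lines, so their number is not comparable with the 27.9% of all genes tested that differed. The values below subtract the RD log2 fold change from the Rh30 one, so that a negative value means a lower change in Rh30. In 16 of the 127 genes the change was called in both lines and in opposite directions: XPOT, GDF15, CHAC1, LOX, COL1A1, TNC, PLAT, CDH13, PAX3, CHRND, HBEGF, PAPPA, SPRY4, ETV4, WWTR1 and ATP1B1. Line and growth medium cannot be told apart in these differences.

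Among the target and the largest changes, the difference was 0.37 for KDM3A, -0.29 for DYNLRB1, -0.73 for HSD17B10, -0.95 for EVI5L, -1.64 for NTN4, -1.21 for MAPRE3, -0.27 for SNX15, -1.76 for CPA4, 0.90 for RAB11B, 1.63 for CITED1, 0.77 for MEST and 0.57 for MAGOHB. KIF4A and MAD2L1, outside the 127 genes, also passed this test, with differences of 0.93 and 0.72. Among genes of translation, tRNA handling and nuclear transport, the difference was 0.84 for EEF1A2, 0.49 for RPL24, 0.63 for RPLP1, 0.59 for FBL, 0.35 for NOP58, 0.69 for MRPL11, 0.37 for MRPS7, -1.03 for CARS, -0.53 for AARS, -0.51 for XPOT, 0.42 for CSE1L and 0.66 for NUP210. Among splicing and chromatin genes, the difference was 0.29 for HNRNPA0, 0.60 for HNRNPD, 0.62 for H1F0, 1.13 for CENPA, 1.03 for HMGB2, 0.23 for HMGA2, 0.81 for EZH2, 0.57 for PHF19, -0.39 for CBX6, 0.44 for UHRF1, 0.29 for CBX1, 0.51 for PHF2 and 0.22 for DNMT1. Among genes of chromosome structure and repair, the difference was 0.92 for NCAPH, 0.87 for NCAPG, 0.82 for XRCC2 and 1.33 for LIG1.

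Among stress response and protein folding genes, the difference was -2.80 for GDF15, -1.92 for CHAC1, -0.30 for DDIT4, 0.34 for CANX, 0.31 for HSP90B1, -0.24 for XBP1, -0.48 for EDEM1, -0.66 for HSPB8, -0.46 for TXNRD1 and 0.58 for MT2A. Among lipid, lysosome and autophagy genes, the difference was 0.50 for FADS1, -0.88 for SMPD1, -0.55 for OSTM1 and -0.53 for ATG4D. Among calcium-binding and matrix genes, the difference was -0.66 for S100A4, -0.81 for ANXA4, -1.56 for LOX, -0.84 for P3H2, 1.09 for PCOLCE, 0.46 for LOXL4, -2.25 for COL1A1, 1.07 for COL2A1, -0.94 for COL11A1, 1.26 for COL6A3, -1.27 for LUM, -1.50 for TNC, 1.43 for LTBP4, 0.78 for LTBP2 and -1.62 for PLAT. Among adhesion genes and the sodium pump, the difference was -0.71 for PCDHB2, -0.70 for CDH13, 0.51 for CDH24, 0.35 for CDH15, -0.83 for ITGA5, -0.90 for ATP1B1 and -0.80 for ATP1B3.

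Among muscle genes, the difference was 1.11 for PITX3, 1.37 for PAX3, 0.35 for MEF2C, -0.96 for TNNC1, 0.78 for MYH3, -1.20 for CHRND and -0.88 for ACHE. Among signalling genes, the difference was -2.06 for HBEGF, -2.33 for PAPPA, -0.62 for IGFBP3, -1.52 for SPRY4, -1.45 for ETV4, 0.31 for PGF, 1.08 for ID2, 0.76 for DLL1, 0.73 for HEYL, -0.75 for SMURF2 and -1.03 for WWTR1. Among immune genes, the difference was -1.19 for PTX3, 1.27 for IL1B, 1.09 for IFIT3, 1.20 for OASL, -1.24 for TAPBP and -0.86 for IFI35.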

How the results depend on the processing

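In RD, 3881 genes were called higher and 3516 lower. With 1 library left out at a time the counts were 3177 to 3456 higher and 2812 to 3109 lower. The ANOVA on unlogged FPKM gave 3213 and 2800, and rescaling each library to the same sum gave 4238 and 2993, with the median of all genes at 0.04. With the replicate number as a block (replicate block) they were 3286 and 2980. Same-numbered libraries did not deviate together (correlations -0.133, -0.029 and -0.084). With 3 libraries per group this cannot show whether same-numbered libraries shared a culture or day, which the labels do not say. Over all alternatives, 43 to 53 ribosomal protein genes were called lower, and 22 to 23 ATF4 targets, 10 to 14 synthetases, 29 to 34 lysosomal genes and 12 to 15 S100 and annexin genes higher. The lowest counts were 13 of 23 cholesterol genes, 20 of 40 ribosome biogenesis factors, 21 of 41 recombination genes and 14 of 27 cadherins and protocadherins. Set against the members tested in RD, these lowest counts lie under the 60% used to choose the 13 lists. The same holds for the lowest counts of ribosomal proteins, synthetases and lysosomal genes. Of 1651 values for 127 genes, 1642 kept direction and side of the threshold and 0 reversed. These 127 do not include every gene named in this report, and the others were not followed under the alternatives. BARD1 lost its call without the filter (adjusted p = 0.0540, limma) and with the ANOVA. POLR1A lost it with all 12 libraries in 1 fit (0.0632, limma) and without RD KDM3A-sh2 replicate 1 (0.0506, limma). CBS lost it with all 12 libraries and without RD Scramble replicate 1, RD Scramble replicate 2 or RD KDM3A-sh2 replicate 1 (0.0539 to 0.0624, limma). JMJD1C passed with the ANOVA only. The causes were not tested. Depth limits statements on low genes, since the number of reads is unknown.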

Other observations

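Further lists were counted in RD, beside 21.6% of all tested genes called higher and 19.5% lower (26.0% and 22.4% of protein-coding genes). Of 27 p53 targets 12 were called higher and 4 lower, and of 20 metallothioneins and zinc transporters 11 were called higher and 1 lower (median 0.19), although MT2A, an abundant metallothionein, fell from 145 to 77.7 FPKM (log2 fold change -0.89). Semaphorins, plexins, ephrins and Eph receptors gave 15 of 37 called higher and 5 lower, among them SEMA3D, a secreted guidance cue that rose from 24.6 to 66.8 FPKM (1.41). Dynein and dynactin subunits gave 10 of 18 higher and 2 lower (median 0.18), tubulins 3 of 16 higher and 6 lower, and actin cytoskeleton genes and SRF targets 16 of 40 higher and 11 lower. After rescaling to the same sum the dynein and dynactin counts were 11 and 1.

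The Wnt list gave 10 of 45 called higher and 12 lower, the Hedgehog list 1 of 12 higher and 4 lower, and AP-1 and immediate early factors 10 of 24 higher and 7 lower. Complement and coagulation genes gave 6 of 22 higher and 4 lower, and hypoxia-inducible genes 5 of 22 higher and 2 lower, or 5 and 0 with libraries rescaled to the same sum. The tricarboxylic acid cycle gave 5 of 17 in each direction, or 7 higher and 4 lower after rescaling. Amino acid transporters gave 5 of 21 higher and 4 lower, mitochondrial dehydrogenases and beta oxidation 12 of 36 higher and 7 lower, mitochondrial import 6 of 31 higher and 9 lower, and sodium pump and potassium channel genes 4 of 28 higher and 8 lower.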
